A study of Mus musculus with 2 samples.

Results

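The genes described here encode the nuclear pore complex and the receptors that carry cargo through it, measured in mouse blastocysts of stage E3.75. Members were the rows of the expression table whose symbol begins with Nup and a digit, Nupl, Kpna, Kpnb, Xpo, Ipo and a digit, Tnpo or Ranbp and a digit, together with Cse1l, Ran and Rangap1. The rule found 55 of the 19559 genes listed. The study compared 1 library of whole blastocysts with 1 library of inner cell masses (ICMs), which were freed of the outer cells by immunosurgery. Both came from embryos of B6CBAF1 mothers and CD-1 fathers with no other treatment named, and the sources used here do not give the number of embryos per library. The whole blastocyst contains its own ICM, so the comparison is of a tissue with a whole that includes it. RNA was amplified before sequencing, and the libraries held 9271198 (blastocyst) and 4125479 (ICM) reads on listed genes. There were no replicates, no test of the conditions was possible, and the intervals below are exact 95% counting intervals of these 2 libraries.

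Nuclear pores are ring-shaped channels through the nuclear envelope, built from many copies of nucleoporins. Stacked scaffold rings anchor the pore in the membrane, and nucleoporins with disordered phenylalanine-glycine (FG) repeats fill the channel. Importins and exportins of the karyopherin family bind cargo and cross that FG mesh, and the small GTPase Ran, loaded with GTP in the nucleus and with GDP in the cytoplasm, gives transport its direction. Early embryos rely on this machinery to bring transcription factors, histones and splicing proteins into nuclei that divide rapidly.

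The regions before the annotated starts of 44 of the 55 members were taken from RefSeq (assembly GRCm38.p6, 250 bases before the first listed start of each gene). They were searched on both strands for the letters of 5 promoter motifs, chosen when the members' values were already known. The NRF1 motif (GCATGCGC) was found in 6 members (13.6%, against 2.32% of all 27025 genes with such a region), namely Nup107, Nup62, Nup50, Ran, Ranbp1 and Xpo5. These letters replaced a longer NRF1 form with an open position after its matches had been seen. The longer form was found in as many members, with Ipo9 in place of Ranbp1, and in a larger share of all genes, so the contrast given here is the wider of both. The ETS motif (CCGGAAGT) was found in 4 members (9.09%, against 2.93%), and the GC box (GGGCGG) in 29 (65.9%, against 32.9%). CCAAT was found in 19 members (43.2%, against 34.5%) and TATAAA in 3 (6.82%, against 13.0%). Overlapping matches in the members were of the same motif, either NRF1 letters read on both strands or adjoining GC boxes. The members' regions had a median GC content of 63.8%, against 52% over all genes, and this was not separated from the motif shares. Below are the regions of Ipo4 and Ipo13, with the highest and the lowest ratio of ICM to blastocyst. This ranking covers members with an RPKM of 1 or more in either library. The regions of Nup54 and Tnpo3 are also shown. Like Ipo4 they hold the ETS letters and had a ratio above 1, and they were picked after the matches were seen. Capitals mark motif matches.
Ipo4, chr14:55635685-55635934, minus strand: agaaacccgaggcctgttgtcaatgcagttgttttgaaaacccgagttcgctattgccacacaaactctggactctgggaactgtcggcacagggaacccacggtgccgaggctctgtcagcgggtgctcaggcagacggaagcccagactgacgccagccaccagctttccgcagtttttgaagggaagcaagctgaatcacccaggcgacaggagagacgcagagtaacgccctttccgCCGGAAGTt
Nup54, chr5:92435200-92435449, minus strand: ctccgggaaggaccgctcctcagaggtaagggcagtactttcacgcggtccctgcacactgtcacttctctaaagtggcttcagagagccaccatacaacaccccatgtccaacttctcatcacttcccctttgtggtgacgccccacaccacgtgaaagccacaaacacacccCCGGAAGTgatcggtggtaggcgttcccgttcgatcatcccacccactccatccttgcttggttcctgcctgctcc
Tnpo3, chr6:29609850-29610099, minus strand: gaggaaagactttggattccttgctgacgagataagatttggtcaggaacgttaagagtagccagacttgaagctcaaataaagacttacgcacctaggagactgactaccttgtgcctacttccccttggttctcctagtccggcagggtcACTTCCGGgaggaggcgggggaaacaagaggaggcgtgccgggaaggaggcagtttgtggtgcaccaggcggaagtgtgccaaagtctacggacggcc
Ipo13, chr4:117915000-117915249, minus strand: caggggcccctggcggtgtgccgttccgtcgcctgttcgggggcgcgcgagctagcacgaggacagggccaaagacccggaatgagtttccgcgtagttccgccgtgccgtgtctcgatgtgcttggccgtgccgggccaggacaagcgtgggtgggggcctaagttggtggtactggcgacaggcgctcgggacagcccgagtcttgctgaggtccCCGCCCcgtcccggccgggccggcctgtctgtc
Ipo13 had the GC box letters alone among the motifs searched. The other member with the ETS letters, Nup155, was 2.12-fold lower in the ICM. Nup62 and Nup93 also had a ratio above 1 but lack the ETS letters, and Kpna1, likewise above 1, had no region among the 44. A link between these letters and the ratio was not tested. A match is a run of letters and was not tested for binding of any factor.

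Expression was deposited as RPKM, reads per kilobase of a gene length scaled to a library total. Differences below are log2((ICM RPKM + 1)/(blastocyst RPKM + 1)), and a gene counted as measured if either library reached an RPKM of 1, which kept 48 of the 55 members and 8981 of all genes. A difference of -1 or less, or of 1 or more, was counted as at least 2-fold. Of all measured genes, 76.6% were lower in the ICM library (a difference below 0), so ratios are also set against the median of the 3013 genes that reached an RPKM of 5 in each library, a ratio of 0.634 (-0.66 on the log2 scale), called the shift below. The identity of the libraries was checked with marker genes. All 7 trophectoderm markers were at least 2-fold lower in the ICM (summed RPKM 1658 in the blastocyst and 52.4 in the ICM), and 5 of 6 epiblast markers (38.9 and 234.6) and 3 of 3 primitive endoderm markers (2.54 and 75.6) were higher. Blood markers had at most 3 reads in either library. Of the cumulus cell markers, Cyp11a1 had 324 reads in the blastocyst and 0 in the ICM, and Has2 and Ptgs2 had at most 1 read. The part of these cell types in the members' differences was not tested, and in bulk RNA fewer cells of a type and less RNA per cell cannot be told apart.

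As deposited, nuclear pore and transport genes were mostly lower in the ICM library by about as much as the other genes, with a few members far from the rest. The library totals behind the deposited RPKM stood at a ratio of 0.842 (ICM over blastocyst), and the reads on listed genes at 0.445. Of the reads on listed genes, the members together held 0.811% in the blastocyst and 0.989% in the ICM. Lower values in the ICM are thus relative to the deposited totals. A difference below 0 was found for 42 of the 48 measured members (87.5%, with 76.6% of all genes). Of the 48 measured members, 16 were at least 2-fold lower in the ICM (33.3%), where 44.0% of all measured genes were. No member was at least 2-fold higher, where 8.96% of all genes were, and 32 were within 2-fold (66.7%, with 47.1% of all genes). The median difference was -0.77 for the members and -0.84 for all genes. Relative to the shift, 4 members were at least 2-fold lower (8.33%, with 20.5% of all genes), 2 were at least 2-fold higher (4.17%, with 16.9%) and 42 were within 2-fold (87.5%, with 62.7%). The middle 50% of the members spanned 0.65 on the log2 scale, and that of all genes 1.43. The members are better covered than most genes, with a median of 786 blastocyst reads against 290. Among genes with 100 or more reads in both libraries the span was 0.62 for 36 members and 1.16 for all 4567. The order of the medians turned there, with -0.77 for the members and -0.63 for all genes. Without a pseudocount and without the RPKM minimum at that depth, 38.9% of 36 members and 39.0% of all 4583 genes were at least 2-fold lower, so the lower share of members was not seen. The plot of the distributions shows the steeper course of the members.

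**Figure D1:**
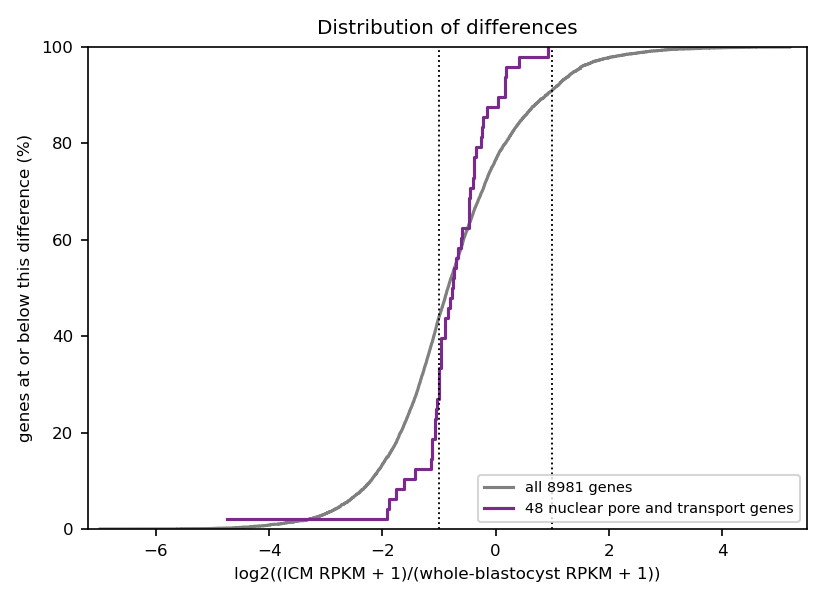
Cumulative share of genes (vertical axis, percent) at or below each difference between ICM and whole blastocyst (horizontal axis, log2 of RPKM + 1), for the 48 measured nuclear pore and transport genes and all 8981 measured genes. Dotted lines mark 2-fold; the members' curve is steeper, with 16 members left of -1 and none right of 1.

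The sign of a difference depended on how the libraries were scaled, so each member was followed over 5 scalings (as deposited, centred on the shift, TPM, quantile normalization and scaling to the reads of listed genes). The importin gene Ipo13, the transportin gene Tnpo2, the cytoplasmic nucleoporin gene Nup88 and the RAN binding scaffold gene Ranbp9 were at least 2-fold lower under all 5. Nup93, Nup62, Nup54, Kpna1, Tnpo3 and Ipo4 were above 0 under all 5. They are the 6 members above 0 as deposited, where 2105 of 8981 measured genes were above 0. Every other scaling raised the ICM relative to the blastocyst. The median of genes with an RPKM of 5 in each library rose by 0.66 to 0.93. Members above 0 as deposited could therefore hardly change sign, so this count adds little to the deposited one. A further 17 members were below 0 under all 5, for 21 in total, and 21 changed sign with the scaling. The same counts over all genes were not computed, so these counts do not set the members apart. The 10 genes named here, at the ends of the set, are described within their complexes below.

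**Figure D2:**
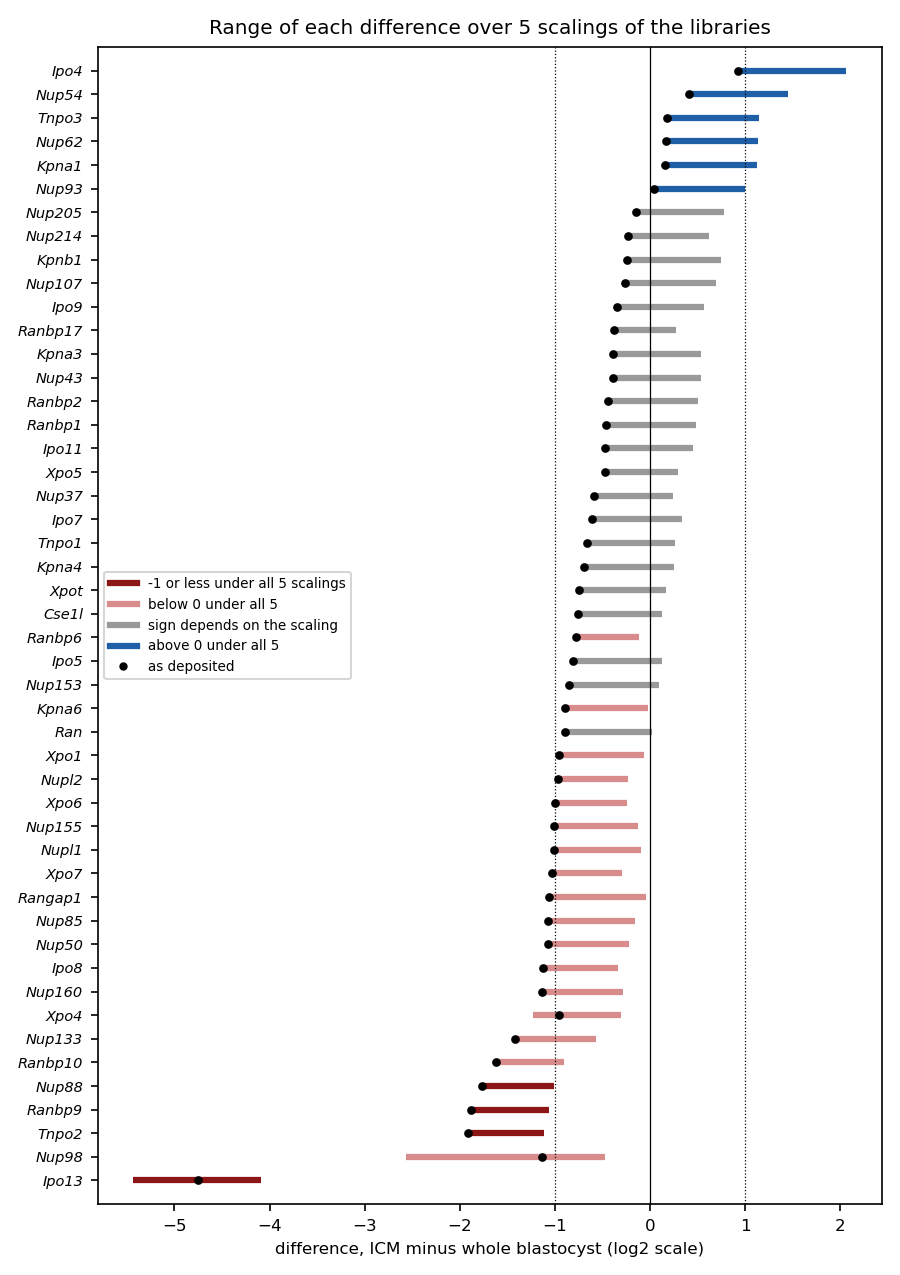
Range of the difference between ICM and whole blastocyst (horizontal axis, log2) over 5 scalings of the libraries for each measured member, with the deposited value as a black dot. The 4 dark red bars stay at -1 or less, the 6 blue bars, above 0 as deposited, stay above 0 and the 21 grey bars cross 0.

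The Y complex forms the outer scaffold rings of the pore. All 6 members in the table were measured, and all 6 had ratios below 1, from 0.832 down to 0.344 (76.6% of all measured genes were lower). Nup107, at the stem of the Y, had an RPKM of 37.4 against 31.1 in the ICM (545 and 382 reads) and thus a ratio of 0.832 (0.728 to 0.950). Nup43 had 17.8 and 13.4 (0.749, 0.611 to 0.916), and Nup37 6.30 and 3.84 (72 and 37 reads; 0.610, 0.399 to 0.919). The other 3 were at least 2-fold lower, where 44.0% of all measured genes were. Nup85 went from 33.3 to 15.3 (2.17-fold lower, 1.74 to 2.73), and Nup160 from 15.5 to 6.53 (2.37-fold, 2.04 to 2.78). Nup133, the foot of the Y, went from 20.6 to 7.10 (193 and 56 reads; 2.90-fold, 2.15 to 3.98). By their counting intervals, the ratio of Nup107 lay above the shift, those of Nup43 and Nup37 included it, and those of Nup85, Nup160 and Nup133 lay below it. Of the Nup133 transcript, 14.0% is shared at 95% identity or more with other annotated transcripts, so its reads are less certain.

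The inner ring joins the scaffold to the membrane and to the channel. Nup93, its hub, had 60.1 in the blastocyst and 62.1 in the ICM (1301 and 1132 reads; ratio 1.03, 0.953 to 1.12). Its difference ran from 0.046 as deposited to 1.005 over the 5 scalings, and relative to the shift it was 1.63-fold higher, with a counting interval above 1. Nup205, which binds Nup93, had 8.37 and 7.45 (0.890, 0.673 to 1.17). Nup155 had 18.7 and 8.81 (1876 and 746 reads), 2.12-fold lower (1.95 to 2.31) and only just past the 2-fold line. Nup188 and Nup35 were below the RPKM minimum. Nup188 had 25 and 3 reads and, at a blastocyst RPKM of 0.992, missed it narrowly. Nup35 had 17 and 8 reads, and 99.2% of its transcript has a near-identical copy in another annotated gene. The membrane nucleoporin Nup210 had 26 and 10 reads and was also below the minimum. The inner ring thus held 2 measured genes with intervals above the shift and 1 below it (32.4% and 52.9% of all measured genes).

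The FG nucleoporins of the central channel are Nup62, Nup54 and Nupl1 (the protein Nup58), which form a trimer. Nup62 had 30.5 in the blastocyst and 34.5 in the ICM (3179 and 3031 reads; ratio 1.13, 1.08 to 1.19). Nup54 had 2.26 and 3.34 (81 and 101 reads; 1.48, 1.09 to 2.01). Nupl1 instead went from 31.1 to 15.0 (966 and 392 reads), 2.08-fold lower (1.84 to 2.34). So 2 genes of the trimer were higher in the ICM as deposited, and the other was lower. Another annotated gene covers 53.3% of the Nup54 transcript at 95% identity or more. The Nup62 transcript overlaps those of Il4i1 on the same strand (13 and 0 reads) and Atf5 on the opposite strand (2953 and 730 reads). Relative to the shift, Nup54 was 2.34-fold higher (1.73 to 3.17) and Nup62 1.79-fold (1.70 to 1.88).

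On the cytoplasmic face, Nup214 and Nup88 bind each other and hold mRNA export factors. Nup214 had 3.10 and 2.50 (259 and 176 reads; ratio 0.807, 0.662 to 0.981). Nup88 went from 9.91 to 2.21 (112 and 21 reads), 4.49-fold lower (2.80 to 7.54). It was the lowest by ratio among the measured nucleoporins the symbol rule takes, apart from Nup98 with its single ICM read (1). The Nup88 transcript overlaps that of Rabep1 on the opposite strand over 48 bases, and Rabep1 had 1063 and 299 reads. Ranbp2, the giant filament protein that holds RanGAP1 at the pore, had 55.9 and 40.8 (1236 and 760 reads; 0.730, 0.666 to 0.800). Nupl2 had 4.69 and 1.91 (443 and 152 reads; 0.407, 0.336 to 0.491), a difference of -0.97 and so just short of the 2-fold line. In the nuclear basket, Nup153 had 54.3 and 29.7 (2784 and 1285 reads; 0.548, 0.512 to 0.586), and Nup50 went from 16.2 to 7.16 (2.26-fold lower, 2.10 to 2.45). Nup98, which carries the most cohesive FG repeats and also occurs off the pore, had 45 blastocyst reads and a single ICM read (1), which gives a ratio of 0.0264 (0.000653 to 0.155). Its low RPKM of 1.27 and 0.0334 left its difference at -1.13 with the pseudocount.

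Importin alpha proteins are adaptors that bind classical nuclear localization signals. Of their genes, 4 of 6 were measured and none was past 2-fold (47.1% of all measured genes were within it). Kpna1 had 17.8 in the blastocyst and 20.04 in the ICM (1958 and 1855 reads; ratio 1.12, 1.05 to 1.20), the only one above 1. Kpna3 had 13.7 and 10.2 (0.749, 0.691 to 0.812), and Kpna4, the importin alpha gene with the highest RPKM, 70.9 and 43.5 (0.614, 0.588 to 0.640). Kpna6 had 15.5 and 7.89 (2935 and 1257 reads; 0.508, 0.475 to 0.543). Kpna2 had 2 reads in the blastocyst and 0 in the ICM. Near-identical copies in 5 other annotated genes cover 95.8% of the Kpna2 transcript, and the sources used here do not say how reads that map to several places were counted, so its level cannot be read from this table. Kpna7, an importin alpha of oocytes and early embryos, had 0 reads in both libraries.

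**Figure D3:**
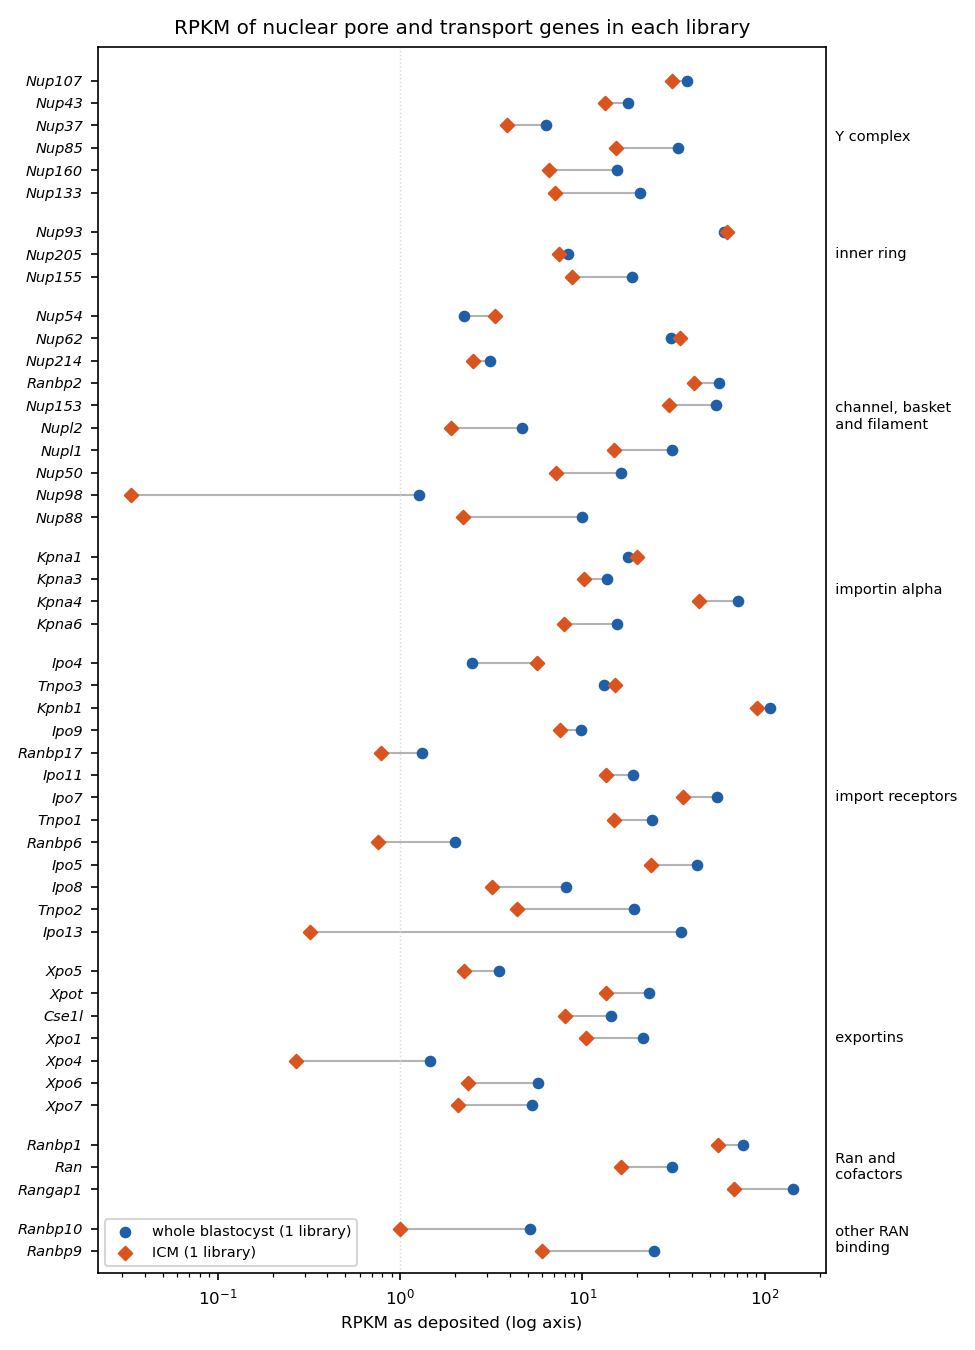
RPKM (horizontal axis, log scale) of the 48 measured members in the whole-blastocyst library (circles) and the ICM library (diamonds), grouped by role and ordered within a group by the difference. In 42 members (87.5%, with 76.6% of all genes) the ICM value is the lower; Ipo13 and Nup98 show the longest lines.

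The importin beta family receptors carry cargo themselves or through an adaptor, and all 13 were measured. Kpnb1, the partner of importin alpha, had the most reads of any member (14295 and 10210), with an RPKM of 107 in the blastocyst and 90.6 in the ICM (ratio 0.848, 0.826 to 0.870). Ipo4, an importer of histones and ribosomal proteins, was the highest of all members, from 2.48 to 5.63 (46 and 88 reads), a ratio of 2.27 (1.57 to 3.32). With the pseudocount its difference was 0.93, just short of 2-fold, and relative to the shift it was 3.58-fold higher (2.48 to 5.24). An annotated gene that overlaps Ipo4 on the same strand shares 60.1% of its transcript. Tnpo3, which imports serine-arginine splicing factors, had 13.2 and 15.2 (618 and 597 reads; 1.15, 1.02 to 1.29). Its transcript overlaps that of Irf5 on the opposite strand, and Irf5 had 17 and 0 reads.

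Ipo13 and Tnpo2, of the same family, had the lowest differences of the measured members (-4.75 and -1.92). By ratio, which uses no pseudocount, Nup98, Xpo4, Ranbp10 and Nup88 also lay below Tnpo2. Ipo13, a receptor that works in both directions and is related to Tnpo3, went from an RPKM of 34.5 to 0.322 on 255 and 2 reads, a ratio of 0.00931 (0.00112 to 0.0340). For comparison, the keratin gene Krt18, the lowest of the 7 trophectoderm markers, had a ratio of 0.0208 (0.0180 to 0.0239), inside the wide interval of Ipo13. The other trophectoderm markers ran from 0.0582 (Krt8) to 0.143 (Tcfap2c). No near-identical copy or overlapping annotated gene was found for Ipo13. Tnpo2 went from 19.3 to 4.36 (1760 and 336 reads), 4.41-fold lower (3.92 to 4.97). The close paralog Tnpo1, which like Tnpo2 imports RNA-binding proteins with proline-tyrosine signals, had 24.1 and 14.9 (2752 and 1435 reads; 0.619, 0.580 to 0.660) and lay at the shift. An antisense transcript covers 11.2% of the Tnpo2 transcript, and 31.3% of the Tnpo1 transcript has a near-identical copy. Ipo8 went from 8.15 to 3.20 (2.55-fold lower, 2.21 to 2.94).

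The other 6 import receptors ranged from a ratio of 0.376 (0.307 to 0.460) for Ranbp6 to 0.767 (0.705 to 0.835) for Ipo9, an importer of histone dimers. Ipo5, a close relative of Ranbp6, had 42.4 and 23.7 (0.561, 0.523 to 0.601), and Ipo7, an importer of ribosomal proteins, had 54.7 and 35.6 on 239 and 131 reads (0.651, 0.522 to 0.808). Ipo11 had 19.1 and 13.5 (0.708, 0.644 to 0.779). Ranbp17 had 64 and 32 reads and an RPKM of 1.32 and 0.782. By the difference with its pseudocount, 3 of the 13 import receptors lay past the 2-fold line on the lower side (44.0% of all measured genes did). The other 10 did not reach it in either direction (47.1% of all measured genes did not). Without the pseudocount Ranbp6 (410 and 130 reads, a difference of -0.78) would join the lower ones at 2.66-fold, and Ipo4 would be past 2-fold on the higher side.

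All 7 exportins were lower in the ICM library as deposited, as were 76.6% of all measured genes, and none lay above the shift by its interval, where 32.4% of all genes did. With 7 genes, this describes the group and does not set it apart. Xpo1, the general exporter of proteins with leucine-rich signals, had 21.4 and 10.5 (1575 and 653 reads; ratio 0.492, 0.449 to 0.539), with a difference of -0.96. Cse1l, which returns importin alpha to the cytoplasm, had 14.3 and 8.02 (0.562, 0.466 to 0.676), and the tRNA exporter Xpot 23.2 and 13.5 (0.580, 0.544 to 0.618). Of the Xpot transcript, 48.1% has a near-identical copy. Xpo7 had 5.27 and 2.08 (2812 and 933 reads), 2.54-fold lower (2.36 to 2.74). The actin exporter Xpo6 had 5.73 and 2.36 (173 and 60 reads), 2.43-fold lower (1.80 to 3.32), with a difference of -1.003 that was the closest to the line among the 16. Xpo5, the exporter of microRNA precursors, rested on 26 and 14 reads (0.639, 0.308 to 1.27) and Xpo4 on 13 and 2 (0.183, 0.0200 to 0.807), so their direction relative to the shift was not detectable at this depth. The middle 50% of the exportin differences spanned 0.23, from -0.98 to -0.75, and that of all measured genes 1.43. These differences include the pseudocount, and the ratios without it ran from 0.639 for Xpo5 down to 0.183 for Xpo4, both on few reads.

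The 3 measured genes of Ran and its cofactors were lower in the ICM library as deposited (76.6% of all genes were), and 1 of them was at least 2-fold lower (44.0% of all genes were). Rangap1, which makes Ran hydrolyse GTP at the cytoplasmic face, went from 142.1 to 67.7 (6462 and 2593 reads), 2.10-fold lower (2.01 to 2.20). Ran itself had 31.05 and 16.2 (2162 and 953 reads; ratio 0.523, 0.484 to 0.565), and its partner Ranbp1 76.4 and 55.2 (736 and 448 reads; 0.723, 0.641 to 0.814). Annotated copies or overlapping transcripts cover 26.9% of the Ran and 31.1% of the Ranbp1 transcript. Ranbp3, a cofactor of Xpo1, had 41 and 25 reads and just missed the minimum at 0.998, and Ranbp3l had 0 reads in both. Ranbp9 and Ranbp10 carry the name but are scaffolds of a ubiquitin ligase, and both were at least 2-fold lower. Ranbp9 went from 24.8 to 6.02 (1134 and 232 reads; 4.12-fold lower, 3.57 to 4.76) and Ranbp10 from 5.16 to 1.01 (792 and 130 reads; 5.13-fold, 4.26 to 6.23). Nol7, which overlaps Ranbp9 on the opposite strand, had 314 and 134 reads. Without Ranbp9 and Ranbp10, 14 of 46 measured members were at least 2-fold lower (30.4%, with 44.0% of all genes).

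**Figure D4:**
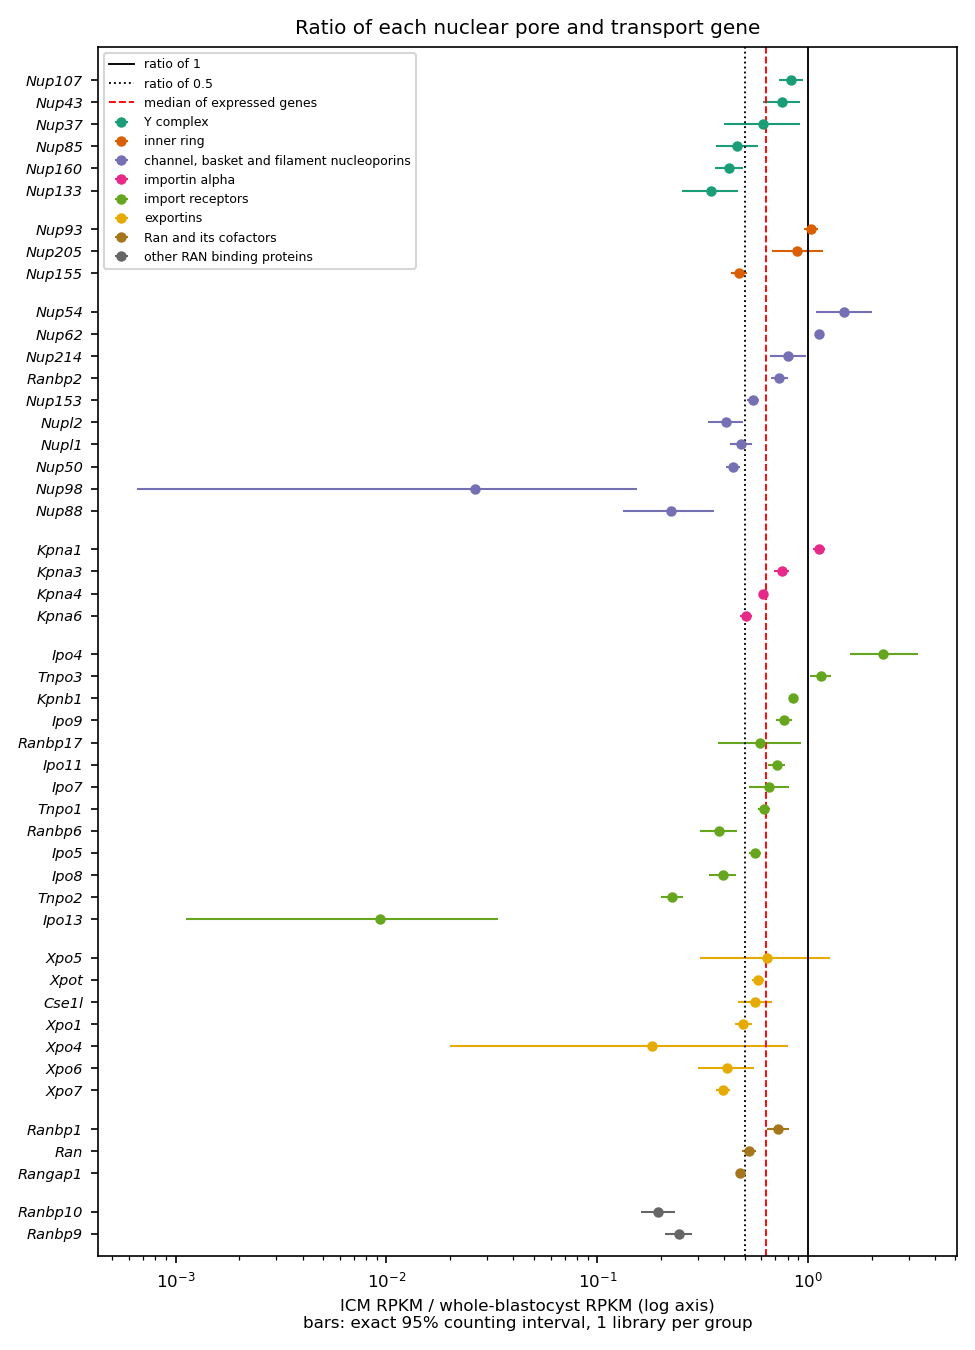
Ratio of ICM to whole-blastocyst RPKM for each measured member (horizontal axis, log scale), coloured by role, with exact 95% counting intervals as bars. Of the 48, 22 lie between the dotted line at 0.5 and the solid line at 1 (45.8%, with 24.6% of all genes). At 0.5 or less lie 20 (41.7%, with 51.9%). The 6 above 1 are 5 under 2 (10.4%, with 11.7%) and 1 at 2 or more (2.08%, with 11.7%). The dashed line marks the shift at 0.634, and Ipo13 lies farthest to the left at 0.00931.

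By these intervals, 15 measured members lay above the shift (31.2%, with 32.4% of all measured genes), 24 below it (50%, with 52.9%) and 9 included it (18.8%, with 14.7%), a split near that of all genes. Without the pseudocount, 20 members had a ratio of 0.5 or less (41.7%, with 51.9% of all genes), and the 4 of them not among the 16 were Nupl2, Ranbp6, Xpo1 and Xpo4. The intervals do not hold the variation between embryos or between amplifications, which was not measured. RPKM values of different members should be compared with care. The gene length that RPKM implies, divided by the length of the longest annotated coding transcript, differed 48.9-fold between Ipo7 (lowest) and Ranbp6 (highest) over 43 members with 50 or more blastocyst reads. The ratios are not touched by this, since a gene has 1 length in both libraries. The RPKM minimum and the 2-fold calls are, since both set RPKM against a fixed value of 1, so a gene with a long implied length such as Ranbp6 is held nearer to 0.

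Ratios of partner genes can be divided by each other, which removes both the library scaling and the gene length. This was done for 19 pairs of partners or paralogs, chosen with their values known. The intervals hold counting error only and the share of other gene pairs that differ as much was not computed, so the values describe these pairs in these 2 libraries. Within the Y complex, Nup107 was higher in the ICM relative to Nup133 by 2.42-fold (1.73 to 3.41), to Nup160 by 1.98-fold (1.61 to 2.43) and to Nup85 by 1.81-fold (1.39 to 2.35). In the inner ring, Nup93 was 2.19-fold higher relative to Nup155 (1.94 to 2.46), whereas relative to Nup205 the value was 1.16 (0.869 to 1.55). In the channel trimer, Nup62 was 2.35-fold higher relative to Nupl1 (2.07 to 2.68), and relative to Nup54 the value was 0.765 (0.561 to 1.04). Nup214 was 3.62-fold higher relative to its partner Nup88 (2.16 to 6.31).

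Among close paralogs, Tnpo1 was 2.73-fold higher in the ICM relative to Tnpo2 (2.39 to 3.13), and Kpna1 2.21-fold relative to Kpna6 of the same subfamily (2.02 to 2.43). Kpna3 relative to Kpna4, again of a shared subfamily, gave 1.22 (1.11 to 1.34), and Ipo7 relative to Ipo8 1.66 (1.27 to 2.15). Ipo4 was 4.05-fold higher relative to Ipo5 (2.78 to 5.96). Tnpo3 relative to Ipo13 gave 123 (33.4 to 1026), an estimate that rests on the 2 ICM reads of Ipo13. In the transport cycle, Kpnb1 was 1.72-fold higher relative to Xpo1 (1.57 to 1.90), Cse1l relative to Kpnb1 gave 0.663 (0.548 to 0.799), and Kpnb1 relative to Kpna4 1.38 (1.31 to 1.45). Ran relative to Ranbp1 gave 0.724 (0.628 to 0.835), and Ran relative to Rangap1 was near 1 at 1.10 (1.004 to 1.20).

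**Figure D5:**
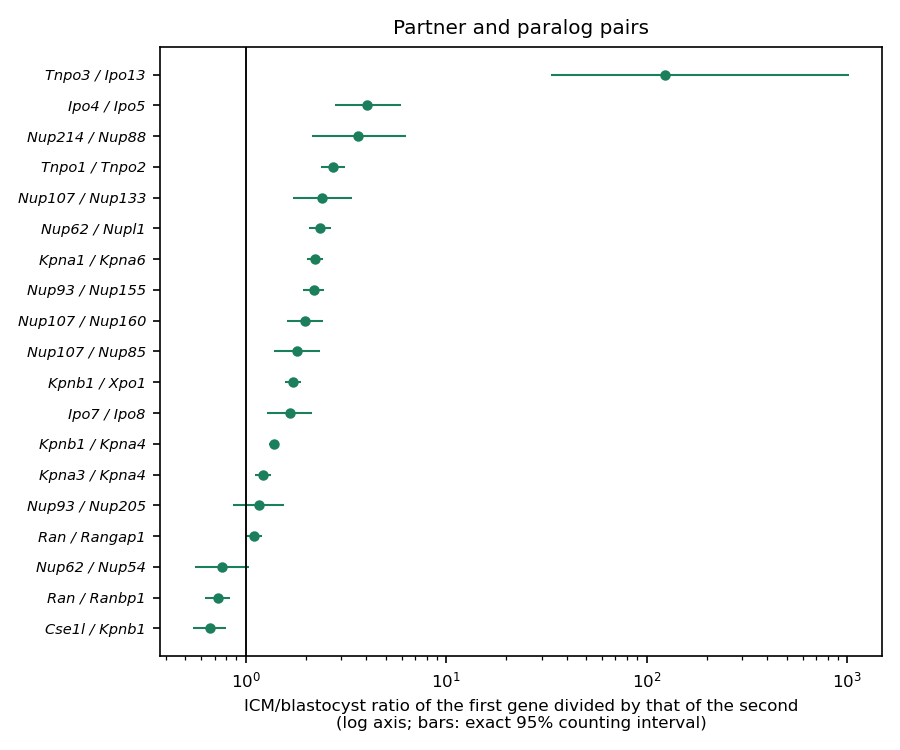
Ratio of ICM to whole blastocyst of the first gene divided by that of the second (horizontal axis, log scale) for 19 partner or paralog pairs, with exact 95% counting intervals as bars. The value is 1 where both genes have the same ratio; Tnpo3 over Ipo13 lies farthest from it at 123 and has the widest interval.

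Genes of the pathway outside the rule were taken from a list of 37, of which 36 were in the table and 33 measured. Of these, 1 was at least 2-fold higher (8.96% of all measured genes were) and 11 lower (44.0% of all genes were), with a median difference of -0.52 against -0.84 over all genes. Among 9 other pore subunits, 3 were past 2-fold on the lower side and none on the higher, to be read against the same shares, as are the counts of the groups that follow. Tpr, the main filament of the nuclear basket, went from 64.8 to 7.76 (575 and 58 reads; 8.35-fold lower, 6.37 to 11.1), while its basket neighbours Nup153 and Nup50 were 1.83-fold and 2.26-fold lower. Gle1, an activator of mRNA export, had 26 and 2 reads. Tmem48, the older symbol of the membrane nucleoporin Ndc1, had a ratio of 2.18 (1.52 to 3.15) on 49 and 90 reads, and Aaas, which Ndc1 holds at the pore, 1.33 (1.16 to 1.53).

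Of the 2 measured Ran regulators, Rcc1, the exchange factor that loads Ran with GTP on chromatin, had 7.67 and 7.12 (ratio 0.929, 0.794 to 1.09), and Snupn, the import adaptor of spliceosomal particles, was 7.04-fold lower (4.03 to 13.3; 117 and 14 reads). Among 19 mRNA export genes, 1 was at least 2-fold higher and 6 lower. The higher was Nxt1, the cofactor of the mRNA exporter Nxf1, from 4.96 to 12.1 (2.44-fold, 2.02 to 2.95), and its relative Nxt2 had a ratio of 2.36 (1.92 to 2.91). The lowest were the helicase gene Ddx19b (3.95-fold, 3.68 to 4.24) and the cap-binding gene Ncbp2 (3.70-fold, 3.36 to 4.09). Of the SUMO protease genes, Senp1 was 2.07-fold lower (1.92 to 2.23), and Senp2 had a ratio of 0.842 (0.741 to 0.956).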

How the data were processed

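Reads per gene were deposited by the authors as whole-number counts, and per the file headers each library also has an RPKM column. Per the submitters' processing notes, reads were placed on mm9. The sources used here do not give the aligner, annotation, strand use or the gene length behind the deposited RPKM. The RPKM that a read is worth differed between the libraries by the same factor (1.187) for every gene with 100 or more reads in both. Ratios of RPKM were given exact conditional (Clopper-Pearson) 95% intervals from the read counts, with scipy 1.17.1, and these cover counting error only, since the cDNA was amplified without molecular identifiers. Pairs of genes were compared by conditional odds ratios of their reads. The computation was tested on simulated counts. Near-identical copies (95% identity over 50 bases or more) and exon overlaps were sought in GENCODE M21 transcripts with blastn, for names and lengths only, since its build differs from mm9.

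The members and lists were chosen with earlier results of these data known. Every member is accounted for; values are given for members past 2-fold, the 2 highest and 2 lowest of each role, and those nearest the 2-fold line. In the other lists the 2 highest and 2 lowest genes are named, except 1 that is not reported here. Scaling, pseudocount, filter and membership were varied.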

Additional observations from a re-analysis of the deposited data

How the results depend on the processing

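As deposited, 16 members were at least 2-fold lower, 0 were higher, and the median difference was -0.77. The count of lower members, with its share and that of all genes, was 6 with a pseudocount of 5 (12.5% and 19.6%), 8 of 31 if both libraries had to reach an RPKM of 5 (25.8% and 34.5%), 4 when centred on the shift (8.33% and 20.5%), 7 as TPM (14.6% and 29.5%), 4 after quantile normalization (8.33% and 21.1%) and 6 when scaled to listed gene reads (12.5% and 25.7%). The count of higher members was 1 with a pseudocount of 0.1 (2.08% and 11.5%), 2 when centred (4.17% and 16.9%), 6 as TPM (12.5% and 22.0%), 3 after quantile normalization (6.25% and 18.7%) and 5 when scaled to listed gene reads (10.4% and 19.1%). The median was -0.11 when centred and turned positive as TPM (0.13), after quantile normalization (0.034) and when scaled to listed gene reads (0.084). Under the same settings the median over all genes was -0.18, -0.11, -0.08 and -0.13. These settings move the median of genes that reach an RPKM of 5 in each library by 0.66, 0.93, 0.82 and 0.87. The other 24 values, including those without Ran, Ranbp1 and Kpna2, without Ranbp9 and Ranbp10, and 2 alternatives chosen after seeing the data (without members over 10% covered by another gene, and without a pseudocount at 100 or more reads in both), kept the direction and stayed within 1.5 times of the main value. For single members and role groups, 354 values stayed within the counting interval or 1.5 times the main count, 254 moved beyond it, and no member past 2-fold changed direction. No paired analysis was possible because each group has 1 library, and for the same reason no library could be left out. Depth limits Ipo13, Nup98, Xpo4 and Xpo5 most.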
